A study of Mus musculus with 45 samples.

Results

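The lowest dose of a TCDD dose series in mouse liver, 0.01 µg/kg, was compared with its vehicle. The libraries were chosen by their dose labels alone, which gave 10 of the 45 RNA-Seq libraries, 5 from vehicle mice and 5 from mice at 0.01 µg/kg. All were liver samples from female C57BL/6 mice gavaged with sesame oil, with or without TCDD (2,3,7,8-tetrachlorodibenzo-p-dioxin), every 4 days over 28 days. The labels also call the mice ovariectomized and the dosing daily, which the study's methods do not mention. Each library was 1 animal, and mice are numbered 1 to 5 within a group in an order that pairs nothing. The libraries at 0.03 µg/kg, 5 mice at the next dose up, were used for a direct comparison.

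TCDD binds the aryl hydrocarbon receptor (AhR), a ligand-activated transcription factor held in the cytosol by chaperones of the HSP90 family. Bound receptor enters the nucleus, pairs with ARNT and binds dioxin response elements, whose core is read from the letters GCGTG, next to genes such as Cyp1a1, Cyp1a2 and Cyp1b1. These genes encode cytochrome P450 enzymes that oxidize foreign and endogenous aromatic compounds, and in liver Cyp1a2 has a high basal level while Cyp1a1 and Cyp1b1 are almost silent until the receptor is bound. The comparison asks which of these responses could already be seen at the lowest dose, against how large a spread between mice.

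The promoters of 4 AhR targets on which the comparison turned are shown because they differ in how many response element cores they hold close to the start of transcription. Each window runs from 250 bases before to 50 bases after a RefSeq start (GRCm38.p6), is written 5′ to 3′ on the gene's strand, and has the core GCGTG, or its reverse complement CACGC, in capitals. No other motif was searched. The Cyp1a1 window (chr9:57697363-57697662, plus strand) held 1 core. The Cyp1a2 window (chr9:57683606-57683905, minus strand) held 0. The Cyp1b1 window (chr17:79715012-79715311, minus strand) held 1 core, on the opposite strand. The Ahrr window (chr13:74292282-74292581, minus strand) held 3. Among all 32851 RefSeq windows of this length, 10639 (32.4%) held the core on either strand, so a match is a description and no more, and its absence says only that these letters are not in this window.
Cyp1a1: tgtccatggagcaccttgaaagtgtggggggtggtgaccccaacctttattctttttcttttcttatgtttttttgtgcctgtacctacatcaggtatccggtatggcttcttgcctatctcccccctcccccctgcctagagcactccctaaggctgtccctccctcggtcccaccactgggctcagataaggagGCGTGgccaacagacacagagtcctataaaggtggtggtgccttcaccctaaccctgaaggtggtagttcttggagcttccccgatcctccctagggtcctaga
Cyp1a2: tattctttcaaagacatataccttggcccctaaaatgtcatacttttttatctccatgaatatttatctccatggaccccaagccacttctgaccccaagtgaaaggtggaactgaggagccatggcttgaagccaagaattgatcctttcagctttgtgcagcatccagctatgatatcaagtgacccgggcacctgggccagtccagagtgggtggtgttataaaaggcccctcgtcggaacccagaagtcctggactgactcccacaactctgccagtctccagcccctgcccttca
Cyp1b1: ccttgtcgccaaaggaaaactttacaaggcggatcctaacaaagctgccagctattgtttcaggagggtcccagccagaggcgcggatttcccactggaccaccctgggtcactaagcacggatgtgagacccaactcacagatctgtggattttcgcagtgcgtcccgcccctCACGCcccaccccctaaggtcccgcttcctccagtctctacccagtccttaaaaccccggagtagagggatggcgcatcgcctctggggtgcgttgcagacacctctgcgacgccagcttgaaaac
Ahrr: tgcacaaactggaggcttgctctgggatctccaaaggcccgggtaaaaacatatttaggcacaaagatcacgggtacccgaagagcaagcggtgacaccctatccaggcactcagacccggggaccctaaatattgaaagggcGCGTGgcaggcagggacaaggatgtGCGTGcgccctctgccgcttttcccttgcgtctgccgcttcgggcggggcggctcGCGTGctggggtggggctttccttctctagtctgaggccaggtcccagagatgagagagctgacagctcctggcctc

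Reads on genes numbered 14619385 to 20624724 in the vehicle libraries and 15380127 to 47411128 at 0.01 µg/kg, where mouse 5 was the deepest. Values are read counts scaled to a common library size by edgeR (CPM), which are not divided by gene length and are therefore compared between mice and never between genes. The summed CPM of 8 hepatocyte markers was 114900 to 151400 in the vehicle mice and 124500 to 164700 at 0.01 µg/kg, so these markers were abundant in all 10 libraries. Of the 5 libraries at 0.01 µg/kg, 3 stood apart before any comparison was made. Mouse 5 had the lowest mean correlation of log2 CPM with the rest of its group (0.9677, against 0.9746 to 0.9811 for the other 4 and 0.9843 to 0.9858 among vehicle mice). Its macrophage markers summed to 1065 CPM, against 171 to 274 in the vehicle mice. Mouse 3 held skeletal muscle transcripts that were at or near 0 elsewhere. Mouse 2 had Xist, the RNA of the inactive X chromosome, at 2.93 CPM, against 1602 to 2487 in the other 9 mice, while 4 Y-linked genes had 0 reads in all 10. Results that lean on mouse 5 are given with and without it.

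No gene was called at 0.01 µg/kg. In the edgeR quasi-likelihood test, fitted to all 45 libraries and adjusted by Benjamini-Hochberg over 17464 detected genes, 0 genes (0.0%) passed an adjusted p of 0.05, the smallest being 0.0539 for Alas2 and Stmn1, and 9 lay under 0.1. At an unadjusted p under 0.05, 1090 genes (6.24%) were higher and 670 (3.84%) lower than in the vehicle mice. The median log2 fold change was 0.01 over the 13609 genes with a mean of at least 10 reads. Without mouse 5 the test again called 0 genes, with a smallest adjusted p of 0.136, and the unadjusted counts became 967 higher (5.54%) and 846 lower (4.84%). Other tools made calls at this threshold, 35 by DESeq2 and 3 by limma on variance-stabilized counts, and the genes limma called were Mast3, Alas2 and Serpina1e.

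Of the AhR targets examined, Cyp1a2 had the smallest p by edgeR with all mice. The gene (ENSMUSG00000032310, chromosome 9, 57676937 to 57683703, GRCm38) stood at 1040, 942, 1094, 1221 and 1228 CPM in vehicle mice 1 to 5. At 0.01 µg/kg it stood at 1952, 1425, 989, 1637 and 1926 CPM in mice 1 to 5. Mice 1, 2, 4 and 5 lay above every vehicle mouse, and mouse 3 lay within the vehicle range, so the groups overlapped by 1 mouse. The means were 1105 ± 122 CPM (SD, n = 5) and 1586 ± 398 CPM (SD, n = 5), a 1.43-fold difference. On the log2 scale this was 0.52 with an SE of 0.13 and a 95% interval of 0.26 to 0.79, which excludes 0 and lies below a 2-fold change. The edgeR adjusted p was 0.137, with 34 genes ranked ahead of it by p, and the exact two-sided permutation test of the mean log2 CPM gave p = 0.0476, where 0.00794 is the smallest 5 mice against 5 can give. That permutation test was run on 6 AhR targets in all and its p is not adjusted for that number. Without mouse 5 the difference was 0.44 (1.36-fold, adjusted p = 0.346 by edgeR, exact permutation p = 0.0952), and without mouse 3 it was 0.65 with an adjusted p of 0.0367, past the threshold. DESeq2 also called it with all mice (adjusted p = 0.0451), so whether Cyp1a2 was called depended on the tool and on which mice were kept.

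Cyp1a1, the classical marker of receptor activation, showed no shared difference. Its levels (ENSMUSG00000032315, chromosome 9, 57687928 to 57703824) in vehicle mice 1 to 5 were 2.90, 1.33, 5.49, 16.6 and 11.1 CPM. In mice 1 to 5 at 0.01 µg/kg they were 4.54, 1.91, 1.18, 1.33 and 69.7 CPM. Only mouse 5 exceeded the highest vehicle mouse, while mouse 3 lay below the lowest and mouse 4 was level with it. In reads these values were 140, 32, 22, 19 and 3338, so that counting error does not set the gap between mouse 5 and the rest. The group mean of 15.7 ± 30.2 CPM (SD, n = 5) had an SD larger than itself, beside 7.50 ± 6.33 CPM (SD, n = 5) in the vehicle mice. The log2 fold change was 1.11 with an SE of 0.60 and a 95% interval of −0.10 to 2.33 (edgeR adjusted p = 0.539, exact permutation p = 0.770). Without mouse 5 the sign turned, to −1.66 with an SE of 0.41 and an interval of −2.49 to −0.85 (adjusted p = 0.203, exact permutation p = 0.127), and the mean was 2.24 ± 1.57 CPM (SD, n = 4). The direction with all mice is thus that of mouse 5. Without it, vehicle mice 4 and 5 (16.6 and 11.1 CPM) lay above all remaining dosed mice. Vehicle mice 1 to 3, at 1.33 to 5.49 CPM, were close to dosed mice 1 to 4, at 1.18 to 4.54 CPM.

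**Figure D1:**
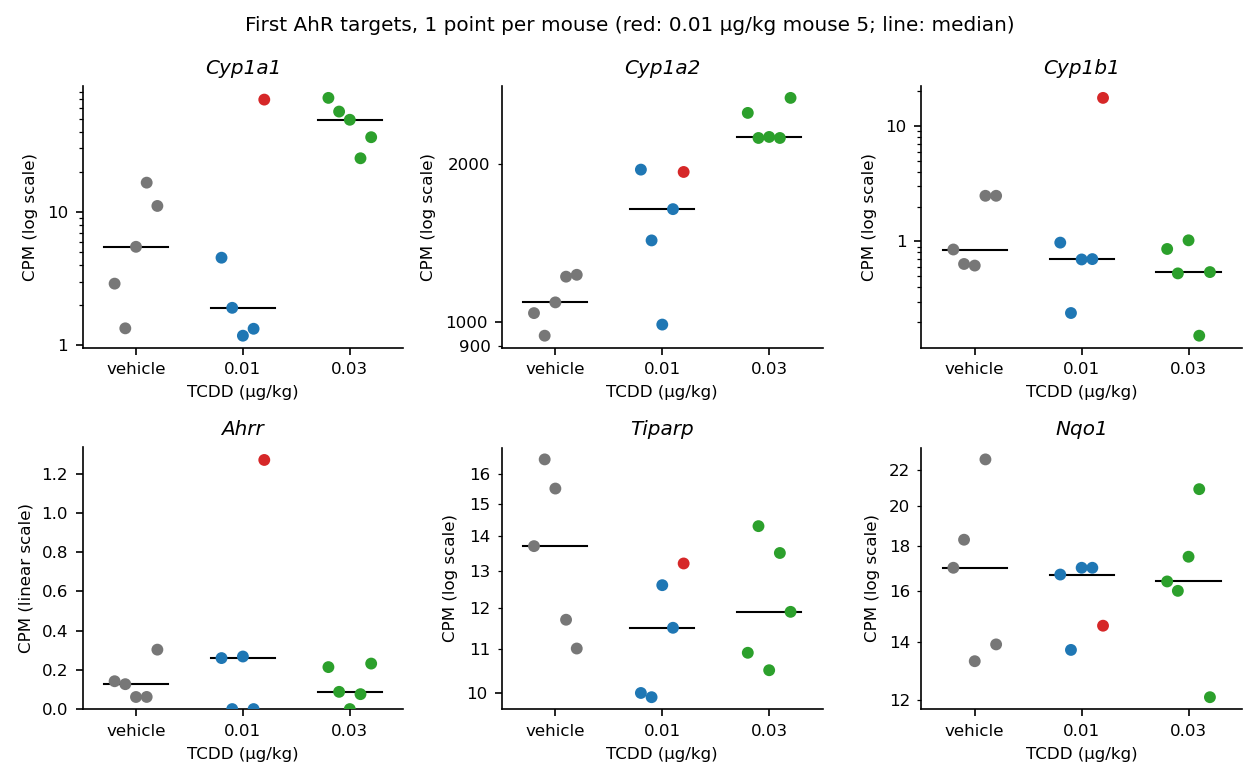
Levels of 6 AhR targets in CPM (log scale, but linear for Ahrr) for each mouse of the vehicle, 0.01 and 0.03 µg/kg groups, with mouse 5 at 0.01 µg/kg marked; each point is 1 mouse and each line the group median. Cyp1a2 stepped up from group to group, while Cyp1a1, Cyp1b1 and Ahrr at 0.01 µg/kg stood out in mouse 5 alone (69.7, 17.5 and 1.27 CPM).

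Cyp1b1 and Ahrr, like Cyp1a1, exceeded the highest vehicle mouse in mouse 5 only. Cyp1b1 (ENSMUSG00000024087, chromosome 17, 79701537 to 79715061), whose enzyme also oxidizes estrogens, was at 0.849, 0.636, 0.616, 2.48 and 2.48 CPM in vehicle mice 1 to 5. At 0.01 µg/kg it was at 0.974, 0.239, 0.696, 0.701 and 17.5 CPM, with mouse 5 alone above the vehicle range. The log2 fold change of 1.64 (SE 0.60, edgeR adjusted p = 0.355) became −1.06 (SE 0.43, adjusted p = 0.420) without mouse 5. Again vehicle mice 4 and 5 (2.48 CPM each) lay above dosed mice 1 to 4, while vehicle mice 1 to 3 lay among them. Ahrr (ENSMUSG00000021575, chromosome 13, 74211118 to 74292331) encodes the repressor that competes with AhR for ARNT. Its vehicle levels were 0.142, 0.127, 0.0616, 0.0619 and 0.303 CPM. The dosed mice were at 0.260, 0, 0.268, 0 and 1.27 CPM, from 8, 0, 5, 0 and 61 reads. A count of 0 allows up to 3 reads, or 0.179 CPM in mouse 2 and 0.21 CPM in mouse 4, so these mice could not be told from the vehicle mice at this depth. The log2 fold change of Ahrr was 1.75 (SE 0.74, adjusted p = 0.410) with mouse 5 and 0.12 (SE 0.86, adjusted p = 0.977) without it.

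Tiparp and Nqo1 had intervals narrow enough to exclude a 2-fold difference. They do not bound the response of the other targets, since both moved little at a dose where Cyp1a1 was far higher. At 0.1 µg/kg Cyp1a1 averaged 828 CPM, against 7.50 CPM in vehicle mice. Tiparp averaged 11.9 CPM there against 13.7 CPM, and Nqo1 19.8 against 17.0 CPM. Tiparp (ENSMUSG00000034640, chromosome 3, 65528410 to 65555518), an ADP-ribosyltransferase that feeds back on AhR, was at 13.7, 16.5, 15.5, 11.7 and 11.02 CPM in vehicle mice and 10.03, 9.91, 12.6, 11.5 and 13.2 CPM at 0.01 µg/kg. The groups overlapped, with a log2 fold change of −0.25 and a 95% interval of −0.60 to 0.10 (edgeR adjusted p = 0.628). Nqo1 (ENSMUSG00000003849, chromosome 8), a quinone reductase under both AhR and Nrf2, was at 17.0, 18.3, 13.3, 22.6 and 13.9 CPM in vehicle mice and at 16.7, 13.7, 17.0, 17.0 and 14.6 CPM at 0.01 µg/kg. All 5 dosed mice lay inside the vehicle range, and the log2 fold change was −0.11 with an interval of −0.47 to 0.26 (adjusted p = 0.873). Aldh3a1, a dehydrogenase that AhR ligands induce in many cells, had 0 reads in all 10 libraries, which allows up to 0.0626 CPM in the deepest and 0.212 CPM in the shallowest.

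The levels of mouse 5 were set against those of the higher doses as a description. Its Cyp1a1 of 69.7 CPM lay inside the range at 0.03 µg/kg (25.3 to 71.8 CPM) and below the lowest mouse at 0.1 µg/kg (612 CPM). Its Cyp1b1 of 17.5 CPM lay above the highest mouse at 0.3 µg/kg (3.19 CPM) and below the lowest at 1 µg/kg (62.3 CPM). The Ahrr level of 1.27 CPM lay inside the range at 0.3 µg/kg (0.325 to 1.71 CPM). Cyp1a2 in mouse 5, at 1926 CPM, was below all 5 mice at 0.03 µg/kg, whose lowest was 2240 CPM. The 4 genes thus placed this liver at 4 different points of the dose series.

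**Figure D2:**
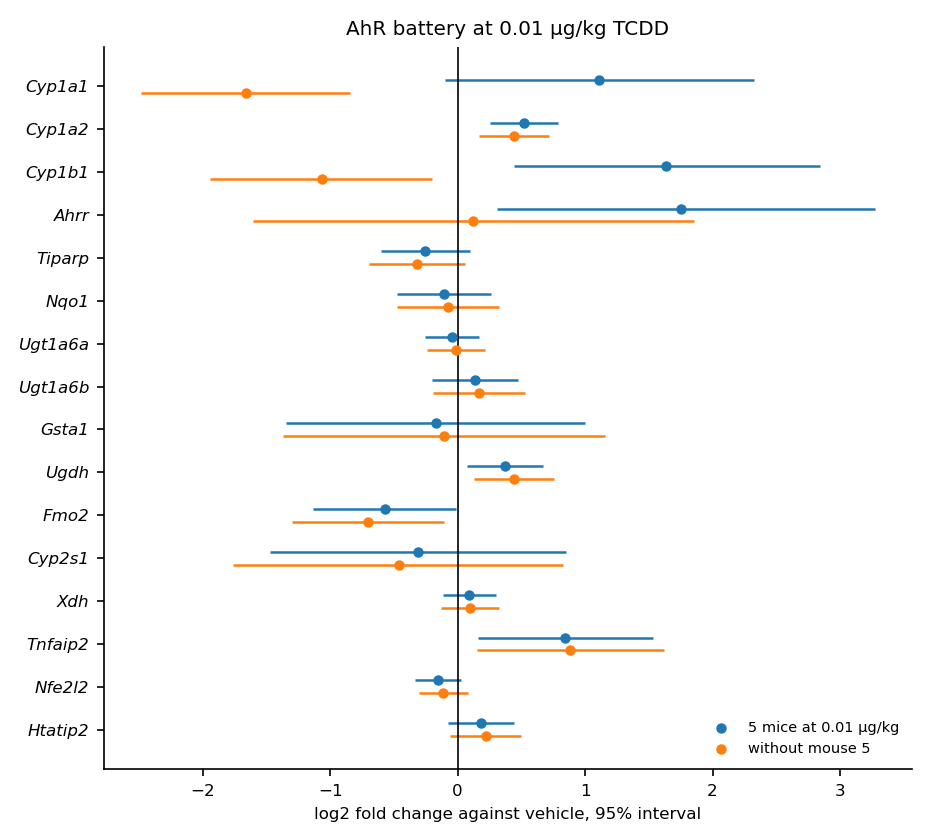
Log2 fold change at 0.01 µg/kg against vehicle with its 95% interval (edgeR) for 16 members of the AhR battery, with all 5 dosed mice and without mouse 5. Removing mouse 5 carried Cyp1a1 and Cyp1b1 across 0 and left Cyp1a2 at 0.44.

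Of the 18 genes listed as the AhR battery, 17 had reads enough for an interval and none was called. At an unadjusted p under 0.05, 5 were higher (Cyp1a2, Cyp1b1, Ahrr, Ugdh and Tnfaip2) and 2 lower, Fmo2 among them, against 6.24% and 3.84% of all genes. Without mouse 5 the counts were 3 higher and 4 lower (5.54% and 4.84% of all genes). Cyp1b1 and Ahrr left the higher side, and Cyp1a1 and Cyp1b1 joined the lower side. The median log2 fold change of the 16 members with at least 10 reads was 0.11, and −0.04 without mouse 5, beside 0.01 over all genes. In 9 members the 95% interval lay inside a 2-fold change in either direction, and in 6 of these inside 1.5-fold. In no member did the 2 groups stand fully apart, a pattern seen in 0.767% of all genes for higher and 0.756% for lower levels.

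Ugdh, which makes the UDP-glucuronic acid used to conjugate xenobiotics, was at 218, 205, 153, 201 and 197 CPM in vehicle mice and 275, 242, 305, 237 and 200 CPM at 0.01 µg/kg. Mice 1 to 4 lay above all vehicle mice, and mouse 5, the animal with the highest Cyp1a1, lay among them (log2 fold change 0.37, edgeR adjusted p = 0.399). Tnfaip2, a TNF-induced gene that is also an AhR target, was at 11.5, 10.9, 9.86, 13.4 and 19.4 CPM against 22.1, 26.0, 31.8, 16.3 and 21.2 CPM. Mouse 4 alone overlapped the vehicle range (0.85, adjusted p = 0.402). Fmo2, a flavin monooxygenase, went the other way. It was at 75.9 to 154 CPM in vehicle mice and at 45.5, 55.3, 54.6, 118 and 101 CPM at 0.01 µg/kg, with mice 4 and 5 inside the vehicle range (−0.57, adjusted p = 0.487).

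Other battery members stayed close to the vehicle. The glucuronosyltransferases Ugt1a6a and Ugt1a6b had log2 fold changes of −0.05 and 0.14, the xanthine dehydrogenase Xdh 0.09, the oxidoreductase Htatip2 0.18, and the antioxidant regulator Nfe2l2 −0.16, all with edgeR adjusted p of at least 0.570. Ugt1a6a and Ugt1a6b share most of their sequence, so their separate counts are uncertain. Gsta1 and Cyp2s1 were under 3 CPM in every mouse, and their log2 fold changes of −0.17 and −0.31 had SEs of 0.58. Of the 6 genes of the receptor and its partners, 0 passed the unadjusted threshold in either direction, with a median of 0.05 (−0.06 without mouse 5). Ahr itself was at 63.8, 60.1, 97.4, 76.5 and 70.4 CPM in vehicle mice and at 70.3, 69.98, 43.8, 92.1 and 109 CPM at 0.01 µg/kg, mouse 3 being below and mouse 5 above the vehicle range. Its log2 fold change was 0.07 (adjusted p = 0.936), and −0.09 without mouse 5. Arnt was at −0.19, Hsp90ab1 at 0.20, Hsp90aa1 at 0.52 and Ptges3 at −0.20 on the log2 scale, with adjusted p of at least 0.574 each.

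The next dose was compared directly, since 0.03 against 0.01 µg/kg shares no vehicle mouse. At 0.03 µg/kg Cyp1a1 was at 71.8, 56.7, 49.2, 25.3 and 36.4 CPM, so that all 5 mice exceeded mice 1 to 4 at 0.01 µg/kg while mouse 5 lay among them. With all mice the log2 fold change was 1.55 (edgeR adjusted p = 0.932) and 0 genes were called. Without mouse 5 it was 4.33 with an SE of 0.43, or 20.1-fold (adjusted p = 1.78e-08), and Cyp1a1 was the 1 gene called of all tested (0.00573%). The exact permutation test without mouse 5 gave p = 0.0159, the smallest possible for 4 mice against 5. Cyp1a2 was at 2500, 2240, 2250, 2240 and 2670 CPM at 0.03 µg/kg, above every mouse at 0.01 µg/kg. The step was 0.59 on the log2 scale (SE 0.13, adjusted p = 0.489), with an exact permutation p of 0.00794, the smallest possible. Against the vehicle, Cyp1a2 at 0.03 µg/kg was 1.11 higher (2.15-fold, adjusted p = 3.37e-06). Levels of Cyp1a2 in vehicle, 0.01 and 0.03 µg/kg mice therefore ascended in that order, with overlap between the first 2 groups by mouse 3 only.

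The spread between mice was the second question. Per gene, the SD of log2 CPM within a group had a median of 0.21 in the vehicle mice and 0.24 at 0.01 µg/kg, over the 13609 genes with at least 10 reads, and 0.21 without mouse 5. The other 7 doses had medians of 0.20 to 0.29, so by its median the 0.01 µg/kg group was not the most variable. By the 95th percentile of the SD it was the highest of the 9 groups, at 0.817 against 0.573 to 0.761, and was at 0.694 without mouse 5. The SD was larger at 0.01 µg/kg than in the vehicle mice in 59.9% of genes, and in 52.1% without mouse 5. A range of more than 2-fold among the 5 mice was found in 24.2% of genes at 0.01 µg/kg and in 15.8% in the vehicle mice, and in 16% among the 4 mice left without mouse 5. Leaving out mouse 5 tends to lower all of these figures, since that library was picked for its low correlation with the group. No vehicle mouse was left out in turn, and a range over 4 mice is narrower than one over 5 by construction. Without mouse 5 the 95th percentile of the SD, 0.694, was still above the 0.601 of the vehicle mice.

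**Figure D3:**
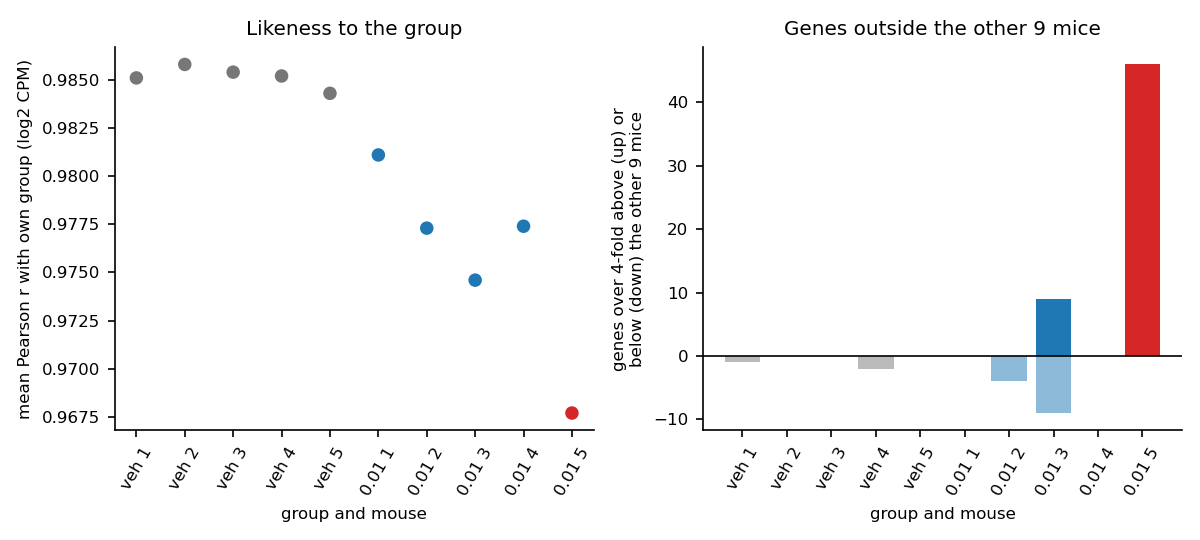
Mean correlation of each library with the other 4 of its group, and the number of genes lying more than 4-fold above or below all of the other 9 libraries, for the 10 mice. Mouse 5 had the lowest correlation (0.968) and the most genes above the rest (46), while mouse 3 had 9 above and 9 below.

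In mouse 5, 46 genes lay more than 4-fold above the highest of the other 9 mice and 0 lay as far below the lowest. These were counted on log2 CPM with a prior count of 2, which narrows differences between low levels. After thinning every library to the depth of the shallowest, 42 genes were above, a count nearly as large at equal depth, and 1 was below. Leading the list was Marco, a scavenger receptor of macrophages, at 144 CPM against at most 6.12 CPM elsewhere. Orm2, an acute phase orosomucoid, stood at 293 CPM against at most 22.9 CPM. Others were Lcn2 (178 CPM), which withholds iron from bacteria, Cxcl13 (17.9 CPM), a chemokine for B cells, the calgranulins S100a8 (5.30 CPM) and S100a9 (6.39 CPM), and the granule genes Ngp (2.28 CPM) and Prtn3 (2.25 CPM). These values set the group means: Marco had a log2 fold change of 3.34 (edgeR adjusted p = 0.126) with mouse 5 and 0.11 (adjusted p = 0.965) without it, and Orm2 2.19 and −0.46. Across the other 8 groups of the series, the highest levels were 28.1 CPM for Marco and 40.6 CPM for Orm2, below mouse 5. Genes lowest in mouse 5 included Trib3, a pseudokinase of the stress response, at 1.54 CPM against 6.38 to 27.3 CPM elsewhere, the clock repressor Nr1d1 at 11.6 CPM against 29.8 to 212 CPM, Cyp2c69 at 70.9 CPM against 156 to 550 CPM, and the water channel Aqp8 at 31.96 CPM against 75.2 to 177 CPM.

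The marker lists placed these genes by cell type. In RNA of unsorted liver tissue, more cells of a type and more RNA per cell cannot be told apart. All 9 macrophage and Kupffer cell markers were highest in mouse 5 of the 10 mice, among them Adgre1 (69.0 CPM against 6.55 to 13.8 CPM), Cd5l (309 against 46.6 to 90.7 CPM) and Csf1r (113 against 17.4 to 42.6 CPM). At p under 0.05, 5 of the 9 were higher at 0.01 µg/kg than in the vehicle mice (6.24% of all genes), and without mouse 5 none was (5.54%), the median log2 fold change going from 0.81 to 0.00. Of 5 neutrophil genes, Ly6g was not detected and the other 4 were higher at p under 0.05 (6.24% of all genes), whereas none was without mouse 5 (5.54%). Their summed level was 14.3 CPM in mouse 5, 0.308 to 1.01 CPM in vehicle mice and 0.478 to 0.963 CPM in the other 4. Mpo, the neutrophil peroxidase, had reads in mouse 5 alone. Hemoglobin and other erythroid genes summed to 167 CPM in mouse 5, 68.9 to 86.0 CPM in vehicle mice and 64.3 to 88.7 CPM in the other 4. The hepatocyte sum of mouse 5, 124500 CPM, lay inside the vehicle range. The part of these cells in the high Cyp1a1, Cyp1b1 and Ahrr of mouse 5 was not tested.

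Acute phase proteins, which hepatocytes secrete in inflammation, followed mouse 5 as well. Of 12 members, 8 were highest in that mouse, including Saa1 at 130 CPM against 13.6 to 26.3 CPM and haptoglobin (Hp) at 5813 CPM against 1541 to 2075 CPM. The summed level was 12430 CPM in mouse 5, 6306 to 7395 CPM in vehicle mice and 6636 to 8860 CPM in the other 4. At p under 0.05, 3 were higher (Apcs, Orm2 and Lcn2) and none lower, beside 6.24% and 3.84% of all genes. Without mouse 5 the counts were 1 higher (Apcs) and 2 lower (Orm1 and Orm3), beside 5.54% and 4.84%. The median log2 fold change went from 0.50 to −0.05. Apcs, serum amyloid P, did not depend on that mouse, with 126, 109, 129, 111 and 87.7 CPM in vehicle mice and 158, 136, 187, 161 and 158 CPM at 0.01 µg/kg. The groups did not overlap (log2 fold change 0.51, edgeR adjusted p = 0.475). Hmox1, the heme oxygenase, was at 37.7 CPM and the cell cycle inhibitor Cdkn1a at 8.58 CPM in mouse 5, against at most 15.8 and 1.97 CPM in the other 9.

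**Figure D4:**
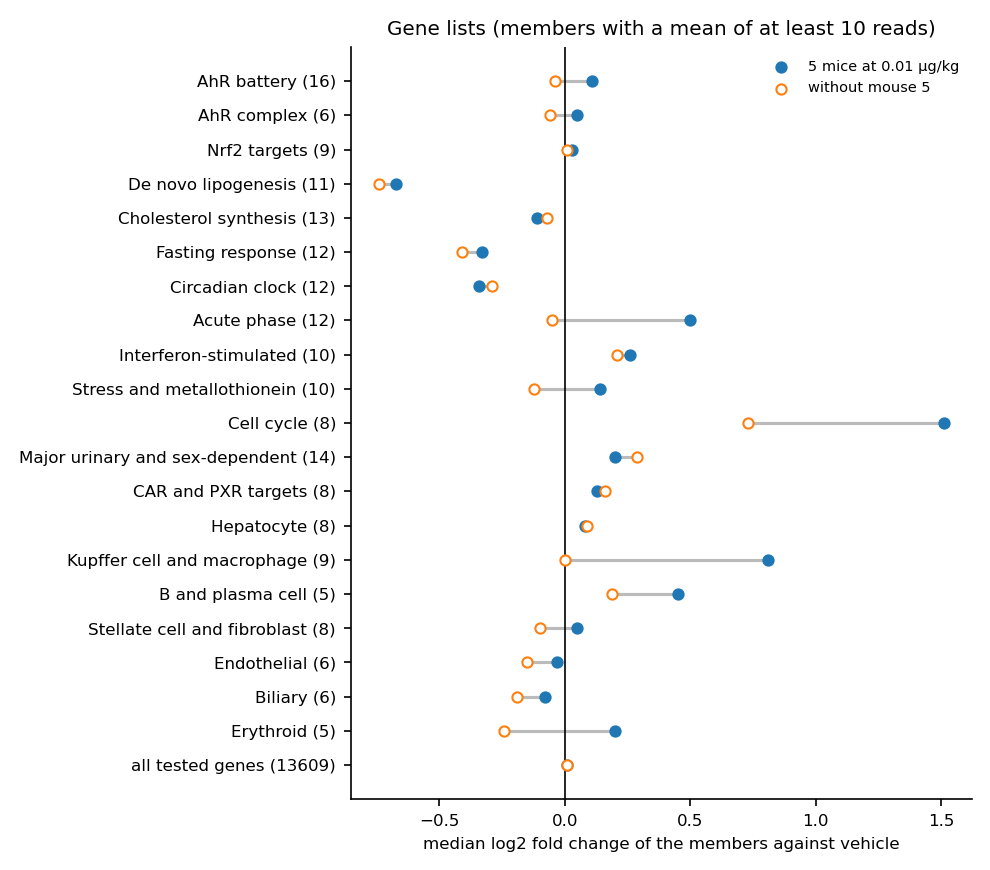
Median log2 fold change at 0.01 µg/kg against vehicle for each gene list, with all 5 dosed mice and without mouse 5 (open points), over members with at least 10 reads, for lists with at least 5 such members. The macrophage median went from 0.81 to 0.00, acute phase from 0.50 to −0.05 and cell cycle from 1.51 to 0.73, while de novo lipogenesis stayed lower (−0.67 and −0.74).

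Cell cycle genes were the list with the most members on one side. Of 10, 8 were higher at p under 0.05 (6.24% of all genes) and none lower. The median log2 fold change was 1.51 over the 8 members with at least 10 reads (this read minimum holds for each list median given). Without mouse 5 the counts were 4 and 0 (5.54% and 4.84% of all genes) with a median of 0.73. Top2a, the topoisomerase of dividing cells, was at 0.637, 0.636, 0.863, 0.866 and 0.607 CPM in vehicle mice. In dosed mice 1 to 5 it was at 4.48, 1.67, 4.12, 1.33 and 10.1 CPM, all 5 above the vehicle mice. Its log2 fold change was 2.63 with an SE of 0.57 (edgeR adjusted p = 0.0881), and 2.04 (adjusted p = 0.310) without mouse 5. At the higher doses the group medians of Top2a were 1.09 to 5.2 CPM, also above every vehicle mouse. Mki67, the proliferation antigen, was at 0.986 to 1.98 CPM in vehicle mice and 5.45, 2.45, 3.80, 0.631 and 10.9 CPM at 0.01 µg/kg. Mouse 4 lay below the vehicle range and the others above it (1.85, adjusted p = 0.259, and 1.25 without mouse 5, adjusted p = 0.462). The kinetochore gene Kntc1 (3.20, adjusted p = 0.0687) and Prc1, Shcbp1, Cenpf, Foxm1 and Aurkb, all of dividing cells, had log2 fold changes of 2.43 to 3.20 at levels of at most 2.96 CPM, and of 1.91 to 2.56 without mouse 5. Among them, Shcbp1 went from 2.86 to 1.99, Aurkb from 3.01 to 2.32 and Kntc1 from 3.20 to 2.56 when that mouse was left out. Stmn1, a microtubule-destabilizing gene of dividing cells that was singled out after its values were seen, averaged 9.0 reads. It was at 0.0708, 0.191, 0.123, 0.186 and 0.152 CPM in vehicle mice and 0.454, 0.299, 0.696, 0.491 and 0.814 CPM in dosed mice. All 5 dosed mice lay above the vehicle mice (1.92, SE 0.38, adjusted p = 0.0539, and 1.69 without mouse 5, adjusted p = 0.203). The summed level of the list was 9.16 to 12.4 CPM in vehicle mice, 10.9 to 27.2 CPM in mice 1 to 4 and 62.2 CPM in mouse 5.

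**Figure D5:**
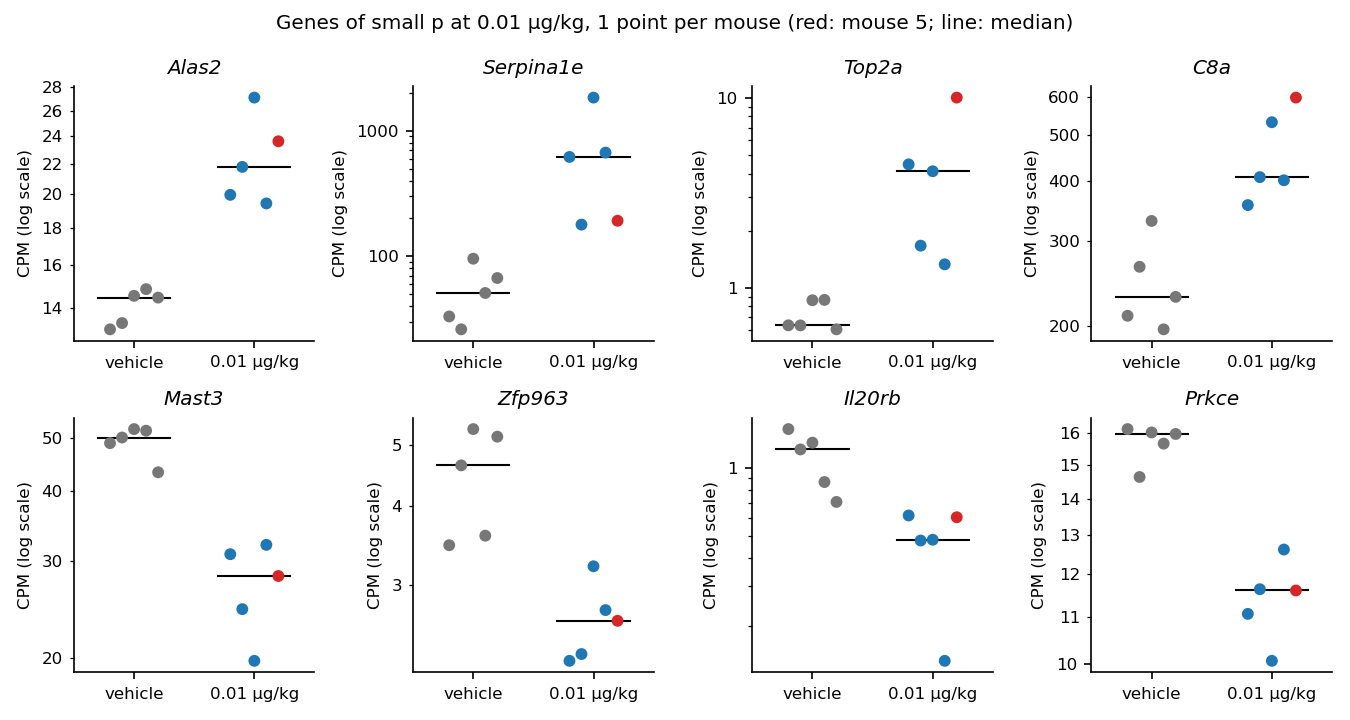
Levels of genes picked from those with small p at 0.01 µg/kg against vehicle, in CPM (log scale), for each of the 10 mice, with mouse 5 in red and lines at the group medians. Only genes whose groups did not overlap are shown. Kntc1, with a smaller p than C8a by edgeR, had overlapping groups and was left out. In Alas2, Serpina1e, Top2a and C8a all dosed mice lay above all vehicle mice, and in Mast3, Zfp963, Il20rb and Prkce all lay below.

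The genes with the smallest p did not include an AhR battery member. Alas2 (chromosome X), the aminolevulinate synthase of heme synthesis in red cell precursors, was at 13.1, 13.3, 14.5, 14.9 and 14.5 CPM in vehicle mice. In dosed mice it was at 19.96, 21.8, 27.1, 19.4 and 23.6 CPM. The groups stood apart, and the log2 fold change of 0.67 (1.59-fold, SE 0.13, edgeR adjusted p = 0.0539) was 0.65 without mouse 5 (adjusted p = 0.157). The hemoglobin genes listed beside Alas2 had log2 fold changes of 0.18 to 0.23, and of −0.29 to −0.23 without mouse 5. At 0.03 µg/kg Alas2 was at 14.3 to 19.2 CPM, which overlaps the vehicle mice and lies below every mouse at 0.01 µg/kg. Mast3, a serine/threonine kinase, was at 48.9, 50.05, 51.8, 51.5 and 43.3 CPM in vehicle mice and 30.8, 24.5, 19.8, 32.05 and 28.2 CPM at 0.01 µg/kg. It was lower in every dosed mouse (−0.86, SE 0.17, adjusted p = 0.0562), and at 0.03 µg/kg it stood at 17.0 to 24.5 CPM.

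Serpina1e, 1 of several near-identical alpha-1-antitrypsin genes whose reads cannot be assigned with certainty, had the largest difference among genes whose groups stood apart. Vehicle mice were at 33.1, 26.1, 95.6, 50.9 and 67.0 CPM and dosed mice at 618, 179, 1838, 669 and 192 CPM. The dosed mice differed widely among themselves, with mouse 3 the highest. The log2 fold change was 3.68 with an SE of 0.76 (12.8-fold, edgeR adjusted p = 0.0687), 3.92 without mouse 5 (adjusted p = 0.136) and 2.93 without mouse 3 (adjusted p = 0.172). At 0.03 µg/kg the range was 116 to 533 CPM, and at 30 µg/kg it was 2.52 to 12.2 CPM, below the vehicle mice. C8a, a complement component made in hepatocytes, was at 197 to 331 CPM in vehicle mice and 357, 408, 531, 402 and 597 CPM at 0.01 µg/kg (0.90, adjusted p = 0.108). Slc10a2, the apical bile acid transporter, was at 1.98 to 3.16 CPM and 5.49, 6.45, 7.38, 5.82 and 6.79 CPM (1.32, adjusted p = 0.149). Both stood apart from the vehicle mice. At 0.03 µg/kg C8a was at 251 to 425 CPM and Slc10a2 at 0.786 to 6.92 CPM, and both ranges reach back into the vehicle. From 0.1 to 3 µg/kg all Slc10a2 values lay above the vehicle mice, the lowest being 3.22 CPM at 0.3 µg/kg. At 10 and 30 µg/kg Slc10a2 was at 1.37 to 4.38 and 1.03 to 2.16 CPM. Every dose was set against the same 5 vehicle mice.

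On the lower side, the zinc finger gene Zfp963 was at 3.47 to 5.30 CPM in vehicle mice and 2.27 to 3.21 CPM at 0.01 µg/kg (−0.76, edgeR adjusted p = 0.0881). Prkce, the epsilon isoform of protein kinase C, was at 14.6 to 16.1 CPM against 10.1 to 12.6 CPM (−0.46, adjusted p = 0.108). These differences were small but even, with no overlap between groups and little shift without mouse 5 (−0.76 and −0.47). At 0.03 µg/kg Zfp963 was at 3.54 to 4.56 CPM, inside the vehicle range and above every mouse at 0.01 µg/kg. At 30 µg/kg Zfp963 was at 1.89 to 3.34 CPM, below the vehicle mice. From 0.03 to 10 µg/kg the group medians of Prkce were 12.3 to 14.2 CPM, below every vehicle mouse. At 30 µg/kg its median was 15.6 CPM, inside the vehicle range. The receptor subunit Il20rb (−1.15, adjusted p = 0.0882) and the acetyltransferase Naa80 (−0.59, adjusted p = 0.105) were also apart from the vehicle mice. Among genes without overlap, the farthest below were Ppp1r3g, a glycogen-targeting phosphatase subunit (−2.54, adjusted p = 0.309), Lpin1, the phosphatidate phosphatase lipin (−1.66, adjusted p = 0.354), and Rgs16, a regulator of G protein signalling (−1.63, adjusted p = 0.412). Lpin1 was at 238, 390, 558, 430 and 309 CPM in vehicle mice and 84.4, 85.1, 75.5, 138 and 225 CPM at 0.01 µg/kg, where mouse 5 came closest to the vehicle range. Over all tested genes 134 stood fully above and 132 fully below the vehicle mice, and without mouse 5, with fewer mice to keep apart, 350 (2.0%) and 281 (1.61%).

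Genes of de novo lipogenesis, which liver raises after feeding, were on the lower side with and without mouse 5. Of 11, none was higher and 5 lower at p under 0.05 (Me1, Acaca, Elovl6, Fasn and Pnpla3), beside 3.84% of all genes, with a median of −0.67. Without mouse 5 there were 6 (4.84% of all genes), with a median of −0.74. The summed level of the list was 18470, 14520, 6315, 19180 and 9209 CPM in vehicle mice and 9672, 8458, 9136, 9182 and 6025 CPM in dosed mice. Vehicle mouse 3 thus lay below all dosed mice but mouse 5, and vehicle mouse 5 lay among them. Fasn, the fatty acid synthase, was at 1144, 645, 466, 1574 and 569 CPM in vehicle mice and 676, 492, 278, 539 and 429 CPM at 0.01 µg/kg. The groups overlapped, as vehicle mice 1 and 4 were far above the other 3 (−0.87, edgeR adjusted p = 0.392). Me1, the malic enzyme, was at 265, 149, 119, 226 and 121 CPM against 118, 146, 50.9, 106 and 73.5 CPM, and its −0.83 had the smallest adjusted p of the list, 0.239. Thrsp was at 340, 167, 122, 409 and 769 CPM against 586 to 1238 CPM in vehicle mice, with mouse 5 the only one inside their range. Sterol synthesis genes showed no such count, with 0 of 13 either way and a median of −0.11. Of 12 fasting genes, 4 were lower, among them Ppargc1a, Cyp4a10 and Angptl4, and none higher (3.84% and 6.24% of all genes). Their median was −0.33, and without mouse 5 there were 2 lower (4.84% of all genes).

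Clock genes varied more from mouse to mouse at 0.01 µg/kg than in the vehicle group. The median SD of log2 CPM over the list's members was 0.30 in vehicle mice and 0.85 at 0.01 µg/kg, and 0.67 without mouse 5. Arntl, the activator of the core clock, was at 1.34, 0.445, 0.431, 1.36 and 0.657 CPM in vehicle mice. At 0.01 µg/kg it was at 4.803, 4.956, 7.44, 0.140 and 2.94 CPM, so that mouse 4 lay below and the other 4 above the vehicle range (2.28, edgeR adjusted p = 0.451). Its partner Clock did the same, with 50.9, 56.5, 44.6, 19.9 and 39.1 CPM against 19.7 to 31.6 CPM, mouse 4 at the vehicle's low end. Among repressors, Per2 was at 26.4, 16.4, 13.4, 52.5 and 83.5 CPM against 40.9 to 73.2 CPM, with mice 1 to 3 below, mouse 4 inside and mouse 5 above the vehicle range. At p under 0.05, 2 of 13 were higher and none lower (6.24% and 3.84% of all genes). Without mouse 5, 2 were higher and 2 lower (5.54% and 4.84%).

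Genes that differ between male and female liver were uneven at 0.01 µg/kg, with a median SD of 0.97 against 0.57 in the vehicle group. Of the 14, 5 were highest and 2 lowest in mouse 2, the library with almost no Xist, while 2 were highest and 5 lowest in mouse 3. Hsd3b5, a steroid reductase typical of males, was at 0.0619 to 1.05 CPM in vehicle mice and 1.23, 5.61, 0.642, 5.05 and 0.292 CPM at 0.01 µg/kg, with mice 2 and 4 the highest. Cyp2d9, also male-typical, was at 220 CPM in mouse 2 against 52.8 to 108 CPM in the other 9. Cyp4a12a was at 2.33 CPM in mouse 2 against at most 0.749 CPM. Sult2a1, a sulfotransferase typical of females, was at 226, 19.1, 97.2, 79.5 and 152 CPM against 117 to 407 CPM in vehicle mice, lowest in mouse 2 (−1.42, edgeR adjusted p = 0.368). Without mouse 2 the log2 fold change was −1.15 for Sult2a1 and 1.83 for Hsd3b5, against 2.38 with it. Cyp2b13, female-typical as well, was at 407 to 530 CPM in vehicle mice and 363, 247, 115, 397 and 351 CPM, lowest in mouse 3 and with no overlap (−0.65, adjusted p = 0.353). In all, 2 of 14 were higher and 2 lower at p under 0.05 (6.24% and 3.84% of all genes), with a median of 0.20. Without mouse 5 these counts were 3 and 2 (5.54% and 4.84%). X-linked genes of mouse 2 had a median log2 difference of −0.03 from the rest.

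Mouse 3 carried transcripts of skeletal muscle. Acta1, the actin of muscle fibers, was at 2.67 CPM in mouse 3 and at most 0.167 CPM elsewhere, and Myh4, Tnnt3 and Ckm were at 1.82, 1.60 and 1.07 CPM against at most 0.0636 CPM. Of 8 muscle markers, 6 were tested and 3 were higher at p under 0.05 (6.24% of all genes), with mouse 3 the highest in each of these 3.

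The remaining lists held few differences. Over all genes, 6.24% were higher and 3.84% lower at p under 0.05, the shares beside which these counts stand. Of 10 antioxidant genes under Nrf2, 1 was higher (Gclc) and 1 lower (Gstm1), with a median of 0.03. Gclc, which starts glutathione synthesis, was at 195 to 211 CPM in vehicle mice and 276, 355, 322, 224 and 224 CPM at 0.01 µg/kg, with no overlap (0.45, edgeR adjusted p = 0.487). Of 10 interferon-stimulated genes, 1 was higher, the antiviral Rsad2 (0.81, adjusted p = 0.251), and of 8 targets of the nuclear receptors CAR and PXR, 1 was higher, Cyp3a11 (0.47, adjusted p = 0.353). Stress, T cell, B cell, stellate, endothelial, pancreatic and hepatocyte lists had 0 members past the unadjusted threshold in either direction. Biliary, adipose and intestinal lists had 1 lower member each and no higher one, and no kidney marker was detected.

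What 5 mice against 5 could show was read from the width of the intervals. The median half-width of the 95% interval of the log2 fold change was 0.40, or 1.32-fold. It was 1.19 (2.28-fold) for the 5186 genes under 1 CPM, 0.42 (1.34-fold) from 1 to 10 CPM, 0.25 (1.19-fold) from 10 to 100 CPM and 0.24 (1.18-fold) above. A change of 2-fold or more in either direction was outside the interval for 68.5% of tested genes, and of 1.5-fold for 49.0%. The Cyp1a2 difference of 0.52 was larger than the usual half-width at its level. The intervals of Cyp1b1 (0.44 to 2.84) and Ahrr (0.31 to 3.28) were wider and also excluded 0 with all mice, and without mouse 5 the Ahrr interval took in 0 and that of Cyp1b1 lay below it. With all mice the exact permutation test gave p = 0.952 for Cyp1b1 and p = 0.786 for Ahrr. Without mouse 5 the median half-width was 0.42 and the share excluding 2-fold was 67.2%. Over all genes, leaving that mouse out did not narrow the median interval, whereas the SE went from 0.60 to 0.41 for Cyp1a1 and from 0.60 to 0.43 for Cyp1b1.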

How the data were processed

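Per the labels and the study's methods, the authors sequenced liver RNA of 45 mice, aligned reads with TopHat 1.4.1, left out those that aligned to more than 1 place, and counted the rest on 39179 Ensembl genes of GRCm38 with HTSeq 0.6.1. The deposited values are raw read counts per gene, with no normalization. The strand setting is not given in the sources used here. Random samples were pooled over lanes, but the labels give no pools, so no within-pool values could be made. Reads on no gene or on more than 1 gene were together 12.4 to 14.1% of uniquely aligned reads and were left out.

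Counts were fitted with edgeR 4.0.16 in R 4.3.3 (TMM, 1 coefficient per group, all 45 samples, quasi-likelihood test, Benjamini-Hochberg adjustment within the comparison), on genes with more than 4 reads in any sample. Called genes had an adjusted p under 0.05. SEs and 95% intervals came from that fit. Log2 CPM used a prior count of 2. Exact two-sided permutation tests compared 5 mice with 5. DESeq2 1.42.0 and limma 3.58.1 were alternatives, the latter on counts variance-stabilized with DESeq2, where the authors used the earlier DESeq package. Their semi-parametric empirical Bayes procedure was not repeated. Symbols and positions came from GENCODE on GRCm38, which matched 37607 of 39179 identifiers and all list entries. Reads share an animal, so depth covers counting error only and the 5 animals set the error.

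The members and gene lists were chosen with earlier results of these data known. Genes named were the AhR lists, the 10 in each direction with the smallest p, the 10 in each direction with the largest change among genes whose groups did not overlap, the 10 in each direction farthest outside the other mice in mouse 5, and 2 to 4 members of each other list (outside the lists, genes averaging under 10 reads per mouse were passed over), with any beyond these chosen after their values were seen. The fit was also run on simulated data, and the outcome is not reported here. Some members of the lists are counted but not reported singly here.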

Additional observations from a re-analysis of the deposited data

Results flagged for a closer look

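A mouse was set apart where its gap to the nearest of its group, over the group's range in log2 CPM, passed Dixon's 95% critical value for 5 mice (0.71). Of 76 values looked at, 8 did so. Chance alone passes about 1 group in 20, but that rate does not hold for genes named from these same values. Marco and Orm2 were named because mouse 5 lay far above the other mice, so their passing was largely fixed beforehand. At 0.01 µg/kg, mouse 5 was high in Marco (144 CPM) and Orm2 (293 CPM), and mouse 4 was low in Arntl (0.14 CPM) and Il20rb (0.14 CPM). Mouse 3 was low in Elovl6 (57.3 CPM). In the vehicle group, mouse 3 was low in Ugdh (153 CPM) and in Sult2a1 (117 CPM), and mouse 2 was high in Rsad2 (10.3 CPM). No cause of these values was tested.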

How the results depend on the processing

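The count of called genes at 0.01 µg/kg was 0 with edgeR as reported and also with no filter on low counts and with robust dispersion. It was 3 with DESeq2 size factors, with edgeR's own expression filter, with no normalization beyond library size and with limma on variance-stabilized counts, 1 of them changed at least 2-fold in each case. It was 8 (4 at least 2-fold) with only the 10 mice in the fit, 35 (21 at least 2-fold) with DESeq2, and 176 (95 at least 2-fold) when p-values were adjusted over all genes and doses together, since the many calls at high doses then loosen the threshold at this one. Leaving out 1 mouse at a time gave 0 to 6 called genes (0 to 4 at least 2-fold), the highest without mouse 4 at 0.01 µg/kg, 3 without mouse 2 and 1 without mouse 3. Leaving out mice 2 and 5 together, an alternative chosen after seeing the data, gave 1.

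Cyp1a2 kept its direction throughout, at 0.43 to 0.65 with 1 mouse left out, and passed the threshold with DESeq2 (0.52, adjusted p = 0.0451), with adjustment over all doses (0.52, adjusted p = 0.0089) and without mouse 3 (0.65). Cyp1a1 turned to −0.16 with limma (adjusted p = 0.938), −1.66 without mouse 5 and −1.58 without mice 2 and 5 (leave-one-out range −1.66 to 1.64). Cyp1b1 turned to −1.06 without mouse 5 and −0.82 without mice 2 and 5 (range with 1 mouse left out −1.06 to 1.97), and Orm2 to −0.46 and −0.38 (range −0.46 to 2.48). Nqo1 turned to 0.02 without vehicle mouse 4 (range −0.19 to 0.02). The cause of the turn under limma was not tested.

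Between 0.03 and 0.01 µg/kg, 0 to 1 genes were called with 1 mouse left out, and Cyp1a1 ranged from 1.24 to 4.33. Genes without overlap numbered 631 instead of 266 without mouse 5. The median spread at 0.01 µg/kg, 0.235, was 0.186 on variance-stabilized counts, 0.191 in genes with at least 100 reads and 0.213 to 0.240 with 1 mouse left out. The correlation of mouse 5 with its group was 0.971 by rank. No paired analysis was possible because the replicate numbers are only names given in accession order. Low read counts limited Ahrr, Cyp1b1, Cyp2s1, Gsta1, Aldh3a1 and the cell cycle genes, among others.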
